A study of Mus musculus with 8 samples.

Results

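The genes described here encode enzymes that make reactive oxygen species, with subunits and a switch of those enzymes: the NADPH oxidase genes Cybb, Cyba, Ncf1 and Nox4, the small GTPase genes Rac1 and Rac2, the xanthine oxidoreductase gene Xdh and the monoamine oxidase genes Maoa and Maob. They were chosen by name, and all 9 stand among the 24469 genes of both deposited tables. Islets picked by hand from the pancreas of mice aged 8 weeks gave the libraries, 4 from wild-type C57BL/6 animals and 4 from animals on that background that lack the snoRNAs U32a, U33, U34 and U35a, which sit in introns of Rpl13a. No other treatment is named, and the labels give neither the sex of the mice nor the way the snoRNAs were removed. These snoRNAs are known from earlier work as mediators of oxidative stress, and the comparison asks whether transcripts of enzymes that make oxidants differ in level between the genotypes.

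The phagocyte NADPH oxidase is a membrane flavocytochrome made of the products of Cybb and Cyba. It moves electrons from NADPH to oxygen and forms superoxide once cytosolic subunits, among them the product of Ncf1, and a GTP-loaded Rac protein join it. Nox4 is a related catalytic subunit that needs Cyba but no cytosolic subunit, and releases mostly hydrogen peroxide. Xanthine oxidoreductase acts in purine breakdown by turning hypoxanthine into xanthine and urate, and its oxidase form passes electrons to oxygen. Monoamine oxidases A and B of the outer mitochondrial membrane remove the amine group of serotonin, catecholamines and trace amines and give off hydrogen peroxide. In beta cells Rac1 is also known for remodelling cortical actin during insulin release.

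Each library held 21.2 to 41.2 M assigned counts, of which 36.7 to 41.3% were the ribosomal RNA gene Rn45s, and sums of the targeted snoRNAs (15 counts over wild type, 0 over knockout) followed the labels; these were counts of U32a and U33, while U34 and U35a had 0 counts in all 8 libraries and wild-type replicate 2 had 1 count in all. The preparations differed in other cells. Knockout replicate 2 carried liver RNA: 15 liver markers summed to 6475 CPM (counts scaled to a common library size that includes TMM, a composition factor) against 276 to 400 CPM in the other 7 libraries. In those 7 libraries most of the sum was Ttr, with 6543 to 11455 counts each. Alb had 85706 counts in knockout replicate 2 and 59 to 172 elsewhere. The 28 acinar markers took 2.03 to 27.6% of assigned counts, with both genotypes spread over that range. The 11 beta-cell markers, among them Ins1 and Ins2, were all present, and summed to 134670 to 183840 CPM over wild-type and 105730 to 134390 CPM over knockout libraries (exact two-sided permutation p = 0.0286, adjusted p = 0.257 over 9 marker lists). In bulk RNA, fewer cells of a type and less RNA per cell cannot be told apart.

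Pairs of these genes come from duplicated ancestors, so whether reads can be assigned to 1 copy bears on each value. The coding stretches below are the most alike of each pair, from GENCODE transcripts of GRCm38, 5′ to 3′, with the bases that differ between the copies in capitals. Rac1 and Rac2 are shown over coding bases 328 to 417, Maoa over 1165 to 1254 and Maob over 1138 to 1227, counted from the A of the start codon.
Rac1: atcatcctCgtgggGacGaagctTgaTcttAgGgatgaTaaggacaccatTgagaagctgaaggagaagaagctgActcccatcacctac
Rac2: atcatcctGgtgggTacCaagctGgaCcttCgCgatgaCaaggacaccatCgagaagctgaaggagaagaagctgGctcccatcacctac
Maoa: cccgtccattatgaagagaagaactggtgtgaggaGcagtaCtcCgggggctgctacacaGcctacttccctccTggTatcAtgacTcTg
Maob: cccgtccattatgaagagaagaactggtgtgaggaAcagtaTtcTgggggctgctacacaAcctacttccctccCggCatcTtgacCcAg
The Rac stretches differed at 10 of 90 bases and the monoamine oxidase stretches at 9 of 90. Over the whole coding part Rac1 and Rac2 shared 77% of bases with a longest identical run of 29 bases, and Maoa and Maob shared 70.3% with a longest run of 35 bases. No window of 50 bases was therefore common to the coding parts of either pair. Windows of that length in Xdh, Cyba, Cybb, Nox4 and Maob occurred in transcripts of no other gene, while 5.65% of those in Ncf1, 3.98% in Maoa and 1.34% in Rac2 did. The build of the deposited tables, mm9, is another one, so no genome coordinates are given.

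Rac1 had a neighbour to consider. In the GENCODE annotation 2309 bases, or 54.8% of the exon length of Rac1, lie across from exons of Daglb, a lipase gene on the opposite strand, whereas in the RefSeq table the genes end 1038 bases apart. Which annotation the authors counted on, and whether strand was used, is not given in the sources used here, so reads of Rac1 and Daglb may not be fully separated. Daglb averaged 6.41 ± 1.27 CPM over wild-type and 5.02 ± 0.87 CPM over knockout libraries (SD, n = 4 each), far below Rac1.

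In wild-type islets Maob and Rac1 were the abundant transcripts of the group on the scale of CPM per kilobase of exons. Maob was at 26.4 ± 2.23 and Rac1 at 16.2 ± 1.98 CPM per kilobase (SD, n = 4). Cyba followed at 1.05 ± 0.147, Cybb at 0.606 ± 0.16 and Maoa at 0.566 ± 0.123 CPM per kilobase. Xdh was at 0.471 ± 0.131, Ncf1 at 0.268 ± 0.053, Rac2 at 0.265 ± 0.186 and Nox4 at 0.0296 ± 0.0119 CPM per kilobase. The wild-type libraries of Maob and Rac1 did not overlap, yet with the shorter coding transcript of Rac1 as its length the Rac1 level would be 29.3, above Maob, so that order rests on the annotation. Neighbours whose library ranges overlapped were Cybb and Maoa, Maoa and Xdh, Xdh and Ncf1, and Ncf1 and Rac2. Maob thus stood far above Maoa, and Rac1 far above Rac2, on this scale.

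**Figure D1:**
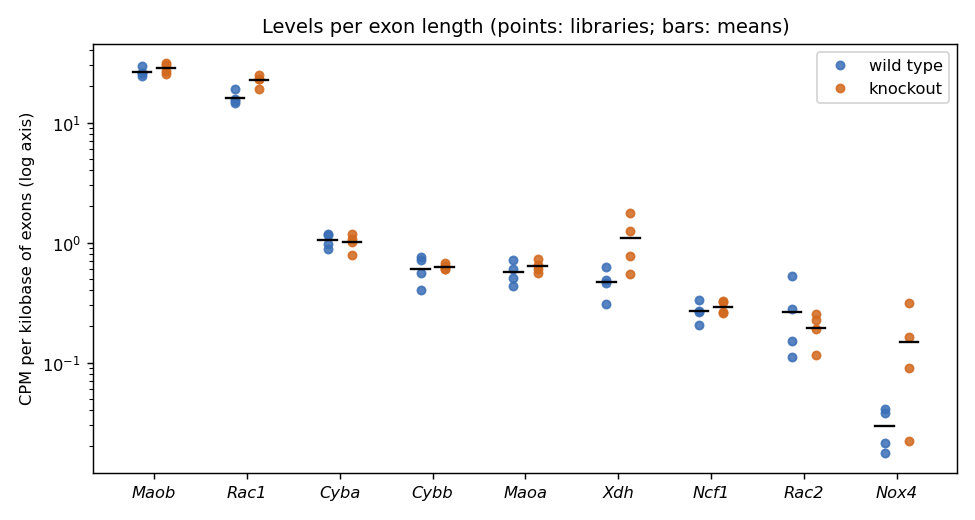
CPM per kilobase of exons (log axis) of the 9 oxidase genes in 4 wild-type and 4 knockout libraries, points for libraries and bars for means. In wild type Maob lies between 24.4 and 29.6 and Rac1 between 14.7 and 19.1, and Nox4 between 0.0175 and 0.0413.

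Between the genotypes, none of the 8 genes that could be tested had an edgeR adjusted p under 0.05 over all 8 libraries, while 2 of 13617 genes (0.0147%) did; Nox4 was too low for the test. Rac1 and Xdh came nearest: mean levels were 1.39 and 2.31 times as high in knockout as in wild type. Of these 8 genes, 6 had positive and 2 negative log2 fold changes, where 51.3% of all tested genes were positive. Their median log2 fold change was 0.11 beside 0.0098 over all tested genes. Rac1 and Xdh alone had an unadjusted p under 0.05, both higher, a state that 8.42% of all tested genes share. No tested member had genotypes that did not overlap, while 8.34% of all tested genes did.

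Without knockout replicate 2 none of the 8 passed either, where 0.0145% of genes did, and 7 were positive where 49.9% of all tested genes were. Rac1 and Xdh again had an unadjusted p under 0.05, beside 6.94% of all genes in that direction. With no composition factor the median over all genes moved to -0.11 and 36.8% of genes were positive; 4 of the 8 were positive there, since Cybb and Ncf1 turned negative. Values below are from the fit with TMM unless another is named.

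**Figure D2:**
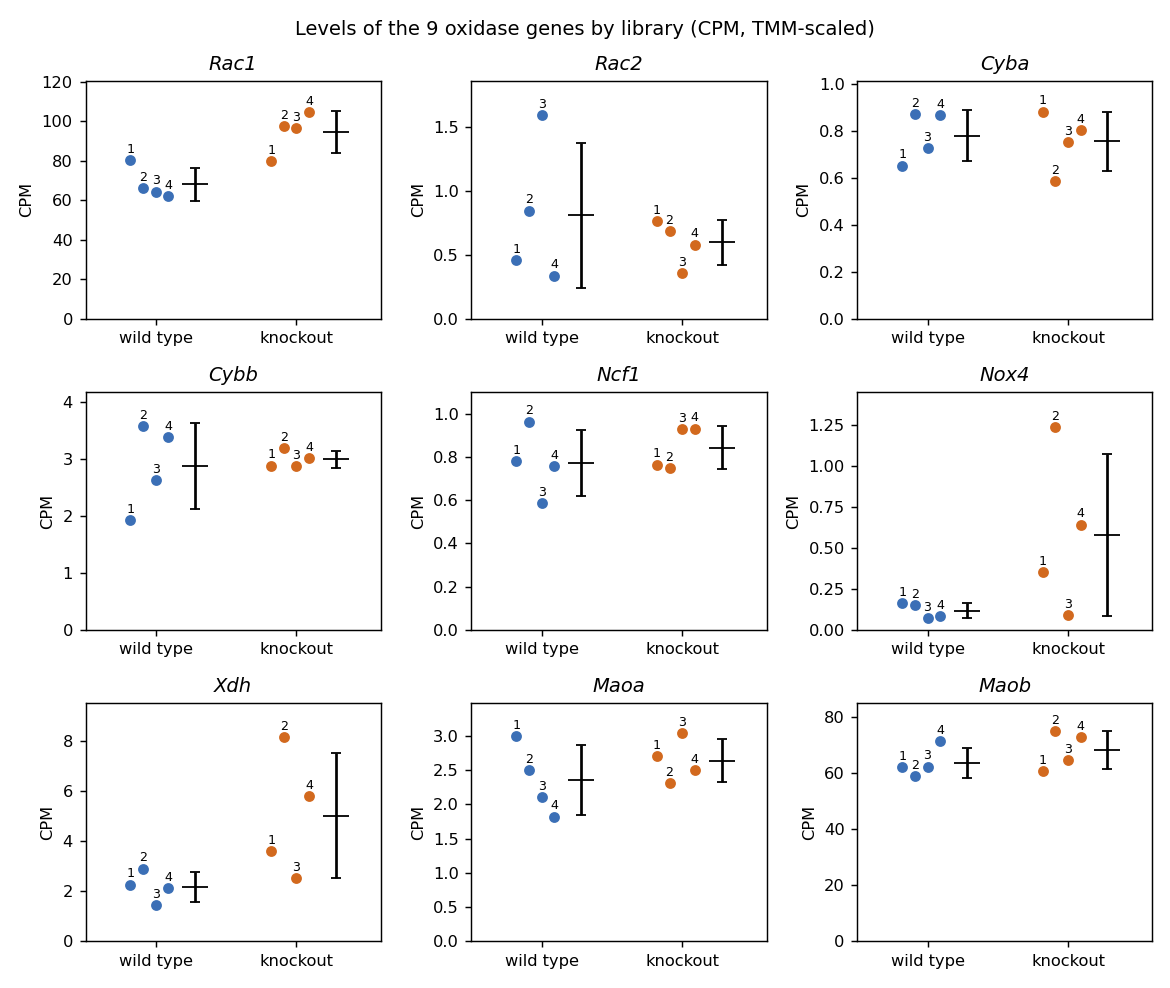
CPM of each gene in each library, numbered by replicate, with mean and SD beside the points; every axis starts at 0. Rac1 and Xdh lie higher in knockout in 15 of 16 pairs of libraries each, and Nox4 lies above all wild-type libraries in knockout replicates 1, 2 and 4.

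Rac1 encodes the GTPase that switches on NADPH oxidase complexes and remodels actin. Its levels were 80.4, 65.9, 64.3 and 61.9 CPM in wild-type replicates 1 to 4 and 79.8, 97.4, 96.5 and 104.7 CPM in knockout replicates 1 to 4. Knockout replicates 2 to 4 lay above all wild-type libraries, and knockout replicate 1 lay just under wild-type replicate 1. In 15 of 16 pairs of a knockout with a wild-type library the knockout was higher. The log2 fold change was 0.47 ± 0.12 (SE, 95% interval 0.22 to 0.73), with an edgeR adjusted p of 0.135. Without knockout replicate 2 it was 0.46 ± 0.13 (edgeR adjusted p = 0.20), so the estimate was about as large without the library that carries liver RNA.

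The call on Rac1 differed between fits. Without wild-type replicate 1 the log2 fold change was 0.55 ± 0.10 with an edgeR adjusted p of 0.0156, and 3.39% of all tested genes passed in the same direction. Without both it and knockout replicate 2 the values were 0.55 and 0.0174, with 4.37% of genes passing in that direction. With any other single library left out, Rac1 did not pass (edgeR adjusted p of 0.116 to 0.386). Those fits called 2 to 5 genes higher and 0 lower, against 470 higher and 843 lower without wild-type replicate 1. DESeq2 on all 8 libraries gave 0.47 and an adjusted p of 0.0096, and called 2.01% of the genes it adjusted as higher. In the authors' own RPM scale, which has no composition factor, Rac1 was at 40.7 ± 4.69 in wild type and 52.7 ± 16.3 in knockout (SD, n = 4 each). There limma-trend gave a log2 fold change of 0.32 ± 0.27 (adjusted p = 0.858) on log2(RPM + 1). Daglb, from the opposite strand, had a log2 fold change of -0.34 ± 0.18 (edgeR adjusted p = 0.304), the other direction from Rac1. Both values come from the same counting, and how far shared reads enter either was not tested.

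Xdh encodes the enzyme that makes urate. Wild-type replicates 1 to 4 gave 69, 96, 41 and 75 counts of Xdh, and knockout replicates 1 to 4 gave 61, 250, 57 and 180. Scaled for library size these were 2.25, 2.89, 1.42 and 2.10 CPM over wild-type and 3.59, 8.15, 2.52 and 5.78 CPM over knockout libraries. Knockout replicates 2 and 4 were high, replicate 1 was above all wild-type libraries, and replicate 3 fell under wild-type replicate 2, so that the knockout was higher in 15 of 16 pairs. The log2 fold change was 1.22 ± 0.36 (SE, 95% interval 0.41 to 2.02), with an edgeR adjusted p of 0.164. Without knockout replicate 2 it was 0.88 ± 0.30 (edgeR adjusted p = 0.232), and the knockout mean fell to 3.96 ± 1.66 CPM (n = 3).

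Other oxidases of liver marked the same library. Of the 1354 knockout counts of Aox3, an aldehyde oxidase related to xanthine oxidoreductase, 1353 stood in knockout replicate 2, as did all 213 of the glycolate oxidase gene Hao1, 313 of 314 of the peroxisomal Acox2 and 1646 of 1668 of the urate oxidase gene Uox. Wild-type libraries together held 3, 0, 2 and 22 counts of these genes. The part of liver RNA in the Xdh level of knockout replicate 2 was not tested. Knockout replicate 4, next highest for Xdh, had 337 CPM of liver markers, inside the range of the other libraries. Most of that sum was Ttr, with 9984 counts, so the sum could hide a small liver share. In counts not scaled for library size, Alb had 172 there, against 59 to 96 in the libraries other than knockout replicate 2. Fgb had 34, against 0 to 12 in those libraries. Apoa2, with 9 counts, lay within their range of 6 to 25. With knockout replicate 2 set aside, counts of Apoa1, Fga, Fgg, Tat and Ahsg were also highest in knockout replicate 4. Those of the remaining liver markers, Apob, Serpina1a, Serpina1c, Mup3, Mup20, Ttr and Cyp2e1, were not. Knockout replicate 4 also had the highest sum of mesenchymal markers, 328 CPM against 159 to 230 CPM elsewhere. The part of liver or mesenchymal RNA in its Xdh level was not tested. Adding the acinar share to the fit gave Xdh a log2 fold change of 1.37 (edgeR adjusted p = 0.14). DESeq2 gave 1.22 with an adjusted p of 0.0243. In RPM, Xdh was at 1.33 ± 0.54 in wild type and 3.0 ± 2.08 in knockout (SD, n = 4 each).

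Nox4, the catalytic subunit that makes hydrogen peroxide, was too low for the filter. Wild-type replicates 1 to 4 gave 5, 5, 2 and 3 counts of Nox4, and knockout replicates 1 to 4 gave 6, 38, 2 and 20. The high libraries were knockout replicates 2 and 4, the ones that were also highest for Xdh, and knockout replicate 3 lay inside the wild-type range. Mean levels were 0.117 ± 0.047 CPM over wild-type and 0.581 ± 0.494 CPM over knockout libraries (SD, n = 4 each), a difference with an exact two-sided permutation p of 0.0857, where the smallest p of 70 splits is 0.0286. Without knockout replicate 2 the knockout mean was 0.361 ± 0.277 CPM (n = 3, exact permutation p = 0.114). In edgeR's fit with no filter on low counts the log2 fold change was 2.30 ± 0.66 (adjusted p = 0.167). Nox4 lies on chromosome 7, as does Rpl13a, with 169 tested genes between them.

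The flavocytochrome genes of the phagocyte oxidase had overlapping levels in the genotypes. Cybb, the catalytic subunit, had levels of 1.92, 3.58, 2.63 and 3.39 CPM over wild-type replicates 1 to 4 and of 2.88, 3.20, 2.87 and 3.02 CPM in knockout. The knockout libraries lay within the wild-type range and close together, with a coefficient of variation of 5.06% against 26.4% in wild type; this difference in spread was not tested. The log2 fold change of Cybb was 0.054 ± 0.20 (95% interval -0.39 to 0.50, edgeR adjusted p = 0.90), and its sign turned in 6 of 22 alternatives. Cyba, which encodes the partner that stabilises Cybb and Nox4, had 20, 29, 21 and 31 counts in wild type and 15, 18, 17 and 25 in knockout. Its log2 fold change was -0.06 ± 0.26 (95% interval -0.63 to 0.51, adjusted p = 0.917), and 0.049 without knockout replicate 2.

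The cytosolic partners did not pass either. Ncf1, the organizer subunit that carries the others to the membrane, gave 24, 32, 17 and 27 counts over wild-type libraries and 13, 23, 21 and 29 in knockout. On the CPM scale, 0.587 to 0.963 in wild type and 0.75 to 0.932 in knockout, the knockout range lay inside the wild-type range, and the log2 fold change was 0.13 ± 0.26 (95% interval -0.44 to 0.70), or -0.022 with no composition factor. Rac2, the Rac protein of blood cells, had 14, 28, 46 and 12 counts in wild type and 13, 21, 8 and 18 in knockout. Wild-type replicate 3 held the highest Rac2 level, 1.59 CPM, against at most 0.843 CPM elsewhere. The log2 fold change of -0.43 ± 0.47 (95% interval -1.47 to 0.61) was 0.11 without that library.

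Leukocyte RNA was low but present in all libraries. The 20 leukocyte markers, among them Ptprc, Csf1r and C1qa, summed to 34.2 to 50.4 CPM over wild-type and 33.3 to 51.2 CPM over knockout libraries (exact permutation p = 0.657), and none had 0 counts in all libraries. Of 10 neutrophil markers, Camp, Mpo and Elane had no count in any library and the list summed to at most 1.06 CPM. Wild-type replicate 1 was the lowest wild-type library for both Cybb (1.92 CPM) and leukocyte markers (34.2 CPM). Knockout replicate 3 was the lowest knockout library for both, at 2.87 and 33.3 CPM. Wild-type replicate 3, highest for the markers in its genotype at 50.4 CPM, had 2.63 CPM of Cybb. With the leukocyte sum as a covariate the log2 fold change was 1.22 for Xdh and 0.46 for Rac1, about as large as without it. The value was -0.22 for Rac2 and 0.13 for Cybb, beside -0.43 and 0.054 without the covariate.

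Neither monoamine oxidase gene passed the test. Maob, which prefers trace amines and was the most abundant member in CPM per kilobase of exons, had levels of 62.0, 58.9, 62.2 and 71.3 CPM over wild-type libraries and 60.6, 74.9, 64.4 and 72.7 CPM in knockout. The ranges overlapped over most of their length, and the log2 fold change of 0.10 ± 0.10 had a 95% interval of -0.12 to 0.32, which corresponds to 0.92 to 1.25 times the wild-type level; the value was -0.047 in limma-trend on log2(RPM + 1). Maoa, which prefers serotonin and noradrenaline, had levels of 3.0, 2.50, 2.11 and 1.82 CPM over wild-type libraries and 2.71, 2.31, 3.05 and 2.51 CPM in knockout. Its log2 fold change was 0.16 ± 0.20 (95% interval -0.27 to 0.59, edgeR adjusted p = 0.673).

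Cybb, Maoa and Maob are X-linked, and 3 libraries (wild-type replicate 4, knockout replicates 1 and 4) had over 1000 counts of Xist, the RNA that coats the inactive X. Their Xist counts were 11458 to 20935, against 51 to 158 in the other 5. By these counts the sexes appear mixed within both genotypes, and not in the same numbers. In those 3 libraries Maob was at 60.6 to 72.7 CPM and in the other 5 at 58.9 to 74.9 CPM. Cybb was at 2.88 to 3.39 and 1.92 to 3.58 CPM, and Maoa at 1.82 to 2.71 and 2.11 to 3.05 CPM. The ranges overlapped for each of these genes. With Xist as a covariate the log2 fold changes of Rac1 and Xdh were 0.51 and 1.25.

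**Figure D3:**
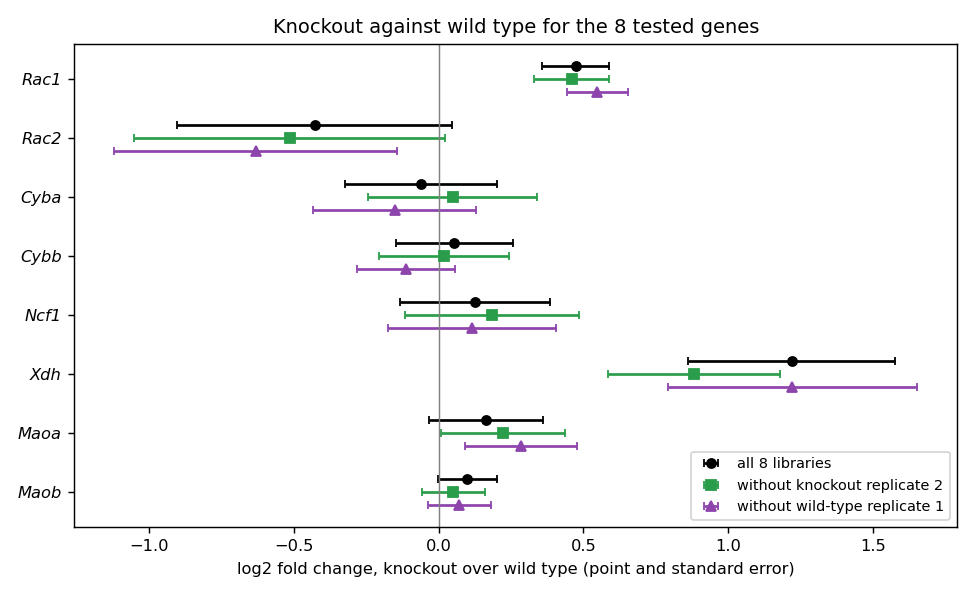
Log2 fold change of knockout over wild type with its standard error for the 8 tested genes, from edgeR fits of all 8 libraries (circles), without knockout replicate 2 (squares) and without wild-type replicate 1 (triangles). Rac1 stays between 0.46 and 0.55 and Xdh between 0.88 and 1.22 in these fits, while Cyba and Cybb change sign.

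Across the 8 libraries the members did not rise and fall as 1 group. Pearson correlations of log2 CPM over their 28 pairs ran from -0.53 (Rac2 with Ncf1) to 0.73 (Xdh with Rac1); as all values share the same libraries and scaling, these describe the libraries only. Among all other tested genes the patterns most like Xdh were those of Abcc9, a subunit of ATP-sensitive potassium channels in vessels, and of the transporter gene Abca8a (r = 0.97 and 0.96 over 8 libraries). The patterns most like Rac1 belonged to Ddx6, an RNA helicase of messenger RNA decay, and Ice2 (r = 0.99 for both). Dapk1 and Dhrs13 were most like Cybb (0.99 and 0.97), Grid2ip and Gad1 most like Cyba (0.97 for both), Fblim1 and Mctp1 most like Ncf1 (0.96 and 0.95), and Kctd11 and E230013L22Rik most like Rac2 (0.94 for both). Atf1 and Slc38a9 were most like Maoa (0.98 and 0.97), and Fmo1 and Acer2 most like Maob (0.96 and 0.95). These are the highest correlations among all tested genes, and no test was made of them.

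**Figure D4:**
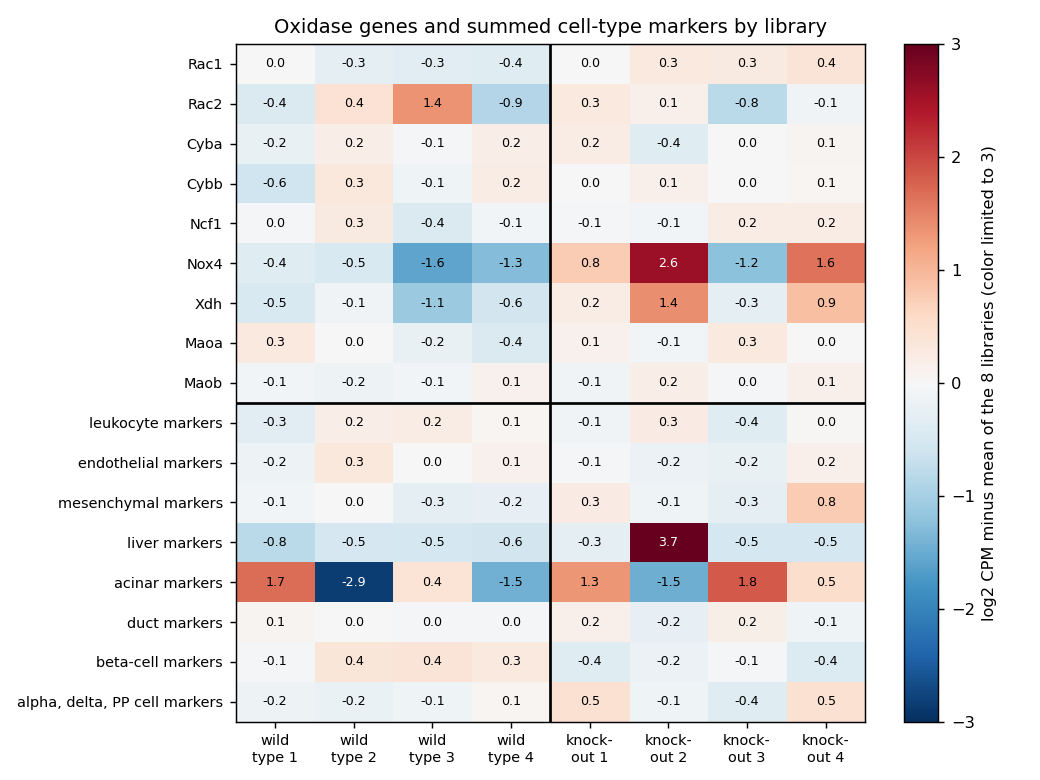
Log2 CPM of each gene and of each summed marker list minus its mean over the 8 libraries, with the values printed in the cells and color limited to 3. Xdh and Nox4 are highest in knockout replicates 2 and 4, liver markers stand out in knockout replicate 2, and acinar markers vary widely within both genotypes.

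Other genes of the same pathways were read from lists of related genes. Of 11 further NADPH and dual oxidase genes 10 were in the table and 3 were tested, none of which passed at an edgeR adjusted p of 0.05. Ncf4, a cytosolic subunit of the phagocyte oxidase, had a log2 fold change of 0.53 ± 0.50, and Noxo1, an organizer of the Nox1 complex, had -0.14 ± 0.21 (edgeR adjusted p = 0.573 and 0.733). Nox1 had 7 counts in each genotype and at most 5 in a library, and Nox3 and the maturation factor gene Duoxa1 had none. The dual oxidase gene Duox1 reached 3 counts over wild-type and 6 over knockout libraries, and Duox2 had 9 and 15. At this depth Cybb was the only catalytic NADPH oxidase or dual oxidase subunit past the filter.

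Among 20 tested regulators of NADPH oxidase and Rac, 8 had positive and 12 negative log2 fold changes (median -0.038, beside 0.0098 over all tested genes), and none passed at an edgeR adjusted p of 0.05; 3 had an unadjusted p under 0.05, which 18.7% of all tested genes share. Prex1, an exchange factor that loads Rac with GTP, averaged 2.47 ± 0.67 CPM over wild-type and 1.497 ± 0.13 CPM over knockout libraries (log2 fold change -0.72 ± 0.22, edgeR adjusted p = 0.168). All its knockout libraries lay below all wild-type libraries, while 8.34% of all tested genes had no overlap in either direction. Arhgdia, which holds Rac proteins in the cytosol, averaged 45.2 ± 9.27 and 32.5 ± 4.67 CPM (-0.48 ± 0.15, adjusted p = 0.171). Vav3, another exchange factor, had a log2 fold change of 0.62 ± 0.28 (adjusted p = 0.255). Without wild-type replicate 1, the single omission with the most calls, Prex1 and Arhgdia fell, at -0.88 and -0.61 (edgeR adjusted p = 0.0266 and 0.0215). These were 2 of 21 tested regulators, where 6.08% of all genes passed in that direction.

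Of 22 tested genes for other oxidases that form hydrogen peroxide, 11 had positive and 11 negative values (median 0.027), and none passed at an edgeR adjusted p of 0.05; 3 had an unadjusted p under 0.05, beside 18.7% of all tested genes. Il4i1, a secreted amino acid oxidase of immune cells, had a log2 fold change of -1.28 ± 0.47 at levels of 0.678 ± 0.111 and 0.275 ± 0.184 CPM that did not overlap (edgeR adjusted p = 0.199). Such a lack of overlap, in either direction, was found for 8.34% of all tested genes. Without knockout replicate 2 the log2 fold change of Il4i1 was -0.91 (edgeR adjusted p = 0.293). Ero1a, which oxidises folding proteins in the endoplasmic reticulum, averaged 21.1 ± 1.71 CPM over wild-type and 24.5 ± 1.85 CPM over knockout libraries (0.22 ± 0.10, adjusted p = 0.249). Pipox, a peroxisomal oxidase of liver and kidney, had 3.91 ± 1.57 (adjusted p = 0.257), and 0.78 without knockout replicate 2. The median of the list was -0.049 without that library.

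**Figure D5:**
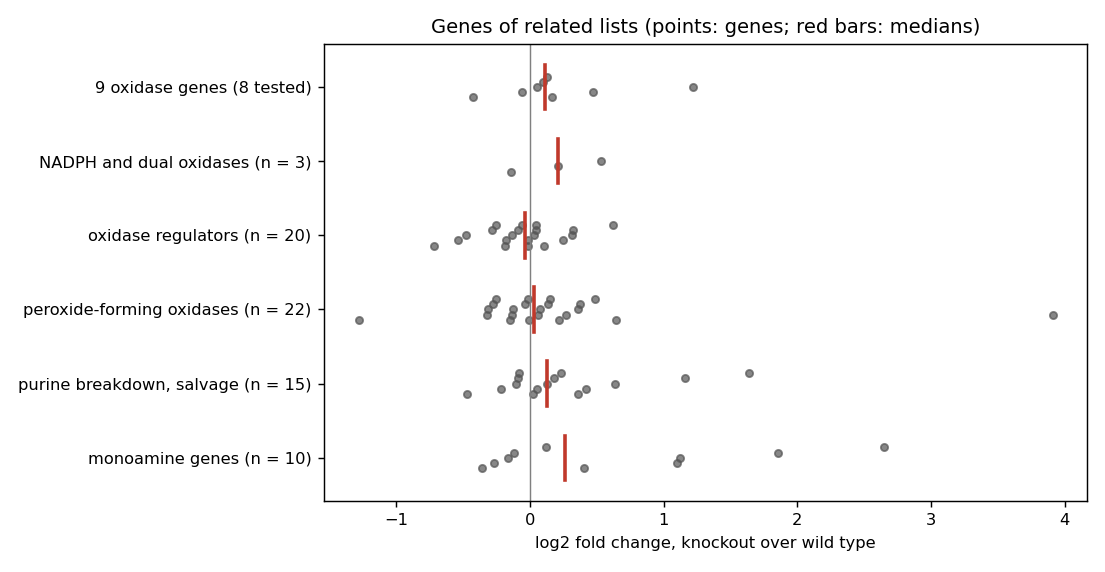
Log2 fold change of knockout over wild type for every tested gene of the oxidase group and of 5 related lists, points for genes and red bars for medians. Medians lie between -0.038 and 0.26, and the farthest point is Pipox at 3.91.

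In purine breakdown and salvage, the pathway that feeds Xdh, 10 of 15 tested genes were positive (median 0.13) and none passed at an edgeR adjusted p of 0.05; 5 had an unadjusted p under 0.05, beside 18.7% of all tested genes. Without knockout replicate 2, 8 of 15 were positive and the median was 0.031. Ampd2, an AMP deaminase, averaged 34.3 ± 5.73 CPM over wild-type and 24.8 ± 2.87 CPM over knockout libraries (log2 fold change -0.47 ± 0.13, edgeR adjusted p = 0.149). Its genotypes did not overlap, a state that 8.34% of all tested genes share. The salvage genes Adk, for adenosine kinase, and Hprt, which reclaims hypoxanthine from Xdh, had 0.64 ± 0.22 and 0.42 ± 0.15, and the nucleotidase gene Nt5c3 had 0.36 ± 0.12 (edgeR adjusted p = 0.191, 0.191 and 0.185). Mocos, whose product adds the sulfur that the molybdenum cofactor of xanthine oxidoreductase needs, had 1.16 ± 0.49, and 0.45 without knockout replicate 2. Without wild-type replicate 1, the single omission with the most calls, Adk rose and Ampd2 fell, at 0.80 and -0.56 (edgeR adjusted p = 0.0358 and 0.0238). That was 1 gene in each direction of 16 tested, where 3.39% of all genes passed as higher and 6.08% as lower.

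Around the monoamine oxidases, 6 of 10 tested genes were positive (median 0.26) and none passed at an edgeR adjusted p of 0.05; 4 had an unadjusted p under 0.05, beside 18.7% of all tested genes. Slc6a2, the noradrenaline transporter gene, did not overlap between genotypes, a state that 8.34% of all tested genes share. It averaged 0.816 ± 0.374 CPM over wild-type and 1.76 ± 0.457 CPM over knockout libraries (log2 fold change 1.10 ± 0.33, edgeR adjusted p = 0.158). Without wild-type replicate 1, the single omission with the most calls, it rose, at 1.43 (edgeR adjusted p = 0.021). That was 1 of 11 genes tested where 3.39% of all genes passed in that direction. The median of the list was then 0.59. The sulfotransferase gene Sult1a1 and the aldehyde dehydrogenase gene Aldh1a1 had 1.86 ± 0.52 and 2.65 ± 1.07, and 1.08 and 1.17 without knockout replicate 2; of the pair, Sult1a1 did not overlap between genotypes. Ddc, the decarboxylase that makes dopamine and serotonin, averaged 40.0 ± 7.20 CPM over wild-type and 31.1 ± 6.28 CPM over knockout libraries (-0.36 ± 0.16, adjusted p = 0.265).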

How the data were processed

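RNA of islets from 4 wild-type and 4 knockout mice was sequenced, from libraries made with the SeqPlex kit, per the labels' protocols. Per the submitters' processing notes, STAR 2.4.1, Partek and mm9 were used. Annotation, strand and each tool's role were not given in the sources used here. Of the tables deposited by the authors, 1 holds estimated counts per gene, of which 9.98 to 12.4% per library were not whole within 0.01; they were rounded. The other deposited table holds RPM, each value plus an offset of 0.0001. The RPM were tested only with limma-trend on log2(RPM + 1) or log2(RPM + 0.1).

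Counts were tested in edgeR 4.0.16 (R 4.3.3; TMM, filterByExpr, robust quasi-likelihood F-test of genotype, Benjamini-Hochberg over 13617 genes, threshold 0.05); standard errors come from the F statistic, and the fit was tested on simulated data. DESeq2 1.42.0 and limma 3.58.1 were alternatives. CPM use TMM-scaled library sizes. Marker sums and Nox4 were compared by exact two-sided permutation over 70 splits. Lengths and coding stretches came from GENCODE M21. Ero1a and Ero1b were matched by older symbols; Cybc1 and Asmt were not matched. Values of 1 tested gene of the related NADPH oxidase list are not reported here. The members and lists were chosen with earlier results of these data known. The text names all members, and in each list the 3 genes of smallest p and every gene where 5 or fewer share a state. Liver oxidases, single liver markers, Daglb and untested oxidases were chosen after their values were seen. No libraries were copies: over all pairs the smallest chi-square per degree of freedom was 26.1. No column of per-sample values was left out. With 1 mouse per library, p-values measure the spread between mice and preparations together.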

Additional observations from a re-analysis of the deposited data

Results flagged for a closer look

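Among the levels of the 9 genes and the sums of the 9 marker lists in each genotype, 1 value stood apart from the other 3 libraries of its group by a gap of 0.989 of the group's range: the liver markers of knockout replicate 2, at 6475 CPM. Chance alone sets apart about 1 in 20 such groups. No level of an oxidase gene stood apart in this way, Xdh and Nox4 in that library included. For these 2 genes knockout replicate 4 was also high, at 5.78 and 0.643 CPM. A rule on gaps therefore cannot show how far knockout replicate 2 moves their values.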

How the results depend on the processing

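Over all 8 libraries edgeR called no member at FDR 0.05; 2 had an unadjusted p under 0.05. DESeq2 called 2 members (Rac1 and Xdh) and 197 genes higher and 328 lower, limma-voom called no member. Leaving out each library in turn, 0 to 1 members were higher, and 2 to 470 genes were higher and 0 to 843 lower, the largest counts without wild-type replicate 1; without knockout replicate 4 it was 5 higher. Without knockout replicate 2 and wild-type replicate 1 together, 1 member (Rac1), 598 genes higher and 698 lower passed. With no composition factor 37 genes were higher and 11 lower, and the median log2 fold change of all genes moved from 0.0098 to -0.11; limma-trend gave 34 and 17 on log2(RPM + 1), and 42 and 16 on log2(RPM + 0.1).

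Rac1 stayed positive over 22 alternatives (0.32 to 0.55) and passed in 3, and Xdh stayed positive over 22 (0.66 to 1.43) and passed in 1. Signs turned for 5 members. Leaving out each library in turn, Rac2 ran from -0.69 to 0.11 (without wild-type replicate 3), Cyba from -0.15 to 0.049 (without knockout replicate 2) and Cybb from -0.11 to 0.18. Cybb was -0.12 with no composition factor, -0.052 and -0.053 with limma-trend, -0.11 and -0.0029 without wild-type replicates 1 and 3, and -0.13 without wild-type replicate 1 and knockout replicate 2. Ncf1 was -0.022 with no composition factor and -0.0075 and -0.0080 with limma-trend, and Maob was -0.047 and -0.048 with limma-trend. The median of peroxide-forming oxidases was -0.049 without knockout replicate 2 and 0.018 without wild-type replicate 1, and that of the monoamine list 0.59 without wild-type replicate 1. The cause of these changes was not tested.

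The labels give no shared source for a replicate number. Deviations of same-numbered libraries correlated at 0.038, 0.21, 0.16 and 0.15, over 0.1 in 3 of 4 pairs. As the labels name no pairing, the main fit did not take the numbers as pairs. Wild-type replicates 2, 3 and 4 correlated best with the knockout of their own number, a hint from the data only, and wild-type replicate 1 with knockout replicate 3 (0.29). With the replicate number as a block, 0 members and 2 genes were higher and 0 lower, with Xdh at 1.14 and Rac1 at 0.48.

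Depth limits Nox4, Rac2, Cyba and Ncf1, with 81 to 186 counts over the 8 libraries.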
